A study of Mus musculus with 31 samples.

Results

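Liver RNA of wild-type mice 22 months old was compared with that of wild-type mice 10 months old, gene by gene, on Affymetrix expression arrays. The members are all arrays whose titles give wild type and one of these ages: 6 arrays at 22 months and 5 at 10 months, or 11 of the 31 arrays of the series. The other arrays come from wild-type mice of 4 months and from Ames dwarf mice of all 3 ages, whose Prop-1 mutation leaves the pituitary short of growth hormone, prolactin and thyrotropin. The wild-type mice are the controls of that line and carry no other allele or treatment in the labels. Each title ends in a different animal name, so each array was taken as 1 animal. The p-values measure the spread between animals within groups, estimated from all 31 arrays of the series and not from these 11 alone. Sex, strain background, feeding state and time of day are not given in the labels. The description given for every array speaks of fly wing discs, but its title, source and organism all say mouse liver.

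The liver makes most plasma proteins, handles lipids, bile acids and amino acids, and answers cytokines such as interleukin 6 with a change in its secreted proteins called the acute phase response. That response runs through the transcription factors STAT3 and C/EBP in hepatocytes. Fatty acid synthesis is driven by SREBP-1c, the product of Srebf1, fatty acid oxidation by PPAR alpha, and bile acid balance by FXR, the product of Nr1h4.

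Values are signal intensities from the MAS5 software, and differences are log2 of signal plus 16, 22 minus 10 months, so that 1 is a 2-fold difference. Hepatocyte markers were strong, as the liver label requires: albumin (Alb) gave a signal of 48104 to 64878 at 22 months and 43732 to 65872 at 10 months. All 6 hepatocyte markers were tested, none passed the threshold, and their median difference was 0.07. After scaling, the median signal was 214 to 227.2 on replicates 1 and 3 to 6 at 22 months and 169.8 on replicate 2. At 10 months it was 179.8 to 202.2, so apart from replicate 2 the older arrays lay above all younger ones. The correlation between any pair of arrays was 0.9033 to 0.9394. In a principal component analysis of all arrays, replicates 3 to 6 at 22 months lay at -45.12 to -33.52 on the second component, which held 7.429% of the variance. The lowest of all other arrays lay at -14.66, and the remaining 22-month arrays, replicates 1 and 2, lay with those others. The labels give no batch that could be set against this division.

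Replicate 2 at 22 months, the array titled df41, stood apart from the other wild-type arrays of both ages in genes that differ by sex in mouse liver. Xist, the RNA of the inactive X chromosome, gave 13757 on it against 361 to 1609 on the other 10 arrays. Eif2s3y, on the Y chromosome, gave 5.6 against 917 to 1264. Sult2a2, a sulfotransferase higher in female liver, gave 29009 against 12.9 to 150.0, and Hsd3b5, a steroid dehydrogenase of male liver, gave 11.3 against 2538 to 15529. Its signal of Igf1, the growth hormone-dependent growth factor, was 18766, above the 12149 to 17891 of the other 10 arrays, whereas dwarf arrays of 10 and 22 months had 868 to 10820. Mup10, a major urinary protein, was at 5756 on df41, below the 8301 to 24642 of the other 10 arrays and above the 16.4 to 816 of those dwarf arrays. The main counts over all genes are therefore given with and without df41. Values of gene lists include df41 unless said otherwise.

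Of 15421 genes tested with limma, 70 passed a Benjamini-Hochberg adjusted p of 0.05, which is 0.454% of all genes. Of these, 22 rose (0.143%) and 48 fell (0.311%). The threshold at an unadjusted p under 0.05 was met by 2027 genes, or 13.1%. Without df41, 211 genes passed (1.37%), 69 higher (0.447%) and 142 lower (0.921%), and 67 of the 70 were among them, 21 higher and 46 lower. Without it 543 genes (3.52%) did not overlap and 48.9% were below 0. The 3 of the 70 that were lost are Aacs, Ociad2 and Zbtb16. Over all genes the median difference was -0.00 and 50.3% were below 0. The values of the groups did not overlap at all for 204 genes, or 1.32% (98 higher, 0.635%, and 106 lower, 0.687%), and 44 of the 70 were of that kind, 16 of those that rose and 28 of those that fell. Rises ran from 0.38 to 2.73 on the log2 scale with a median of 1.20, and falls from 0.35 to 2.23 in size with a median of -0.76. The genes that rose had weaker signal: the larger group mean was under 500 for 10 of 22 that rose and for 7 of 48 that fell.

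**Figure D1:**
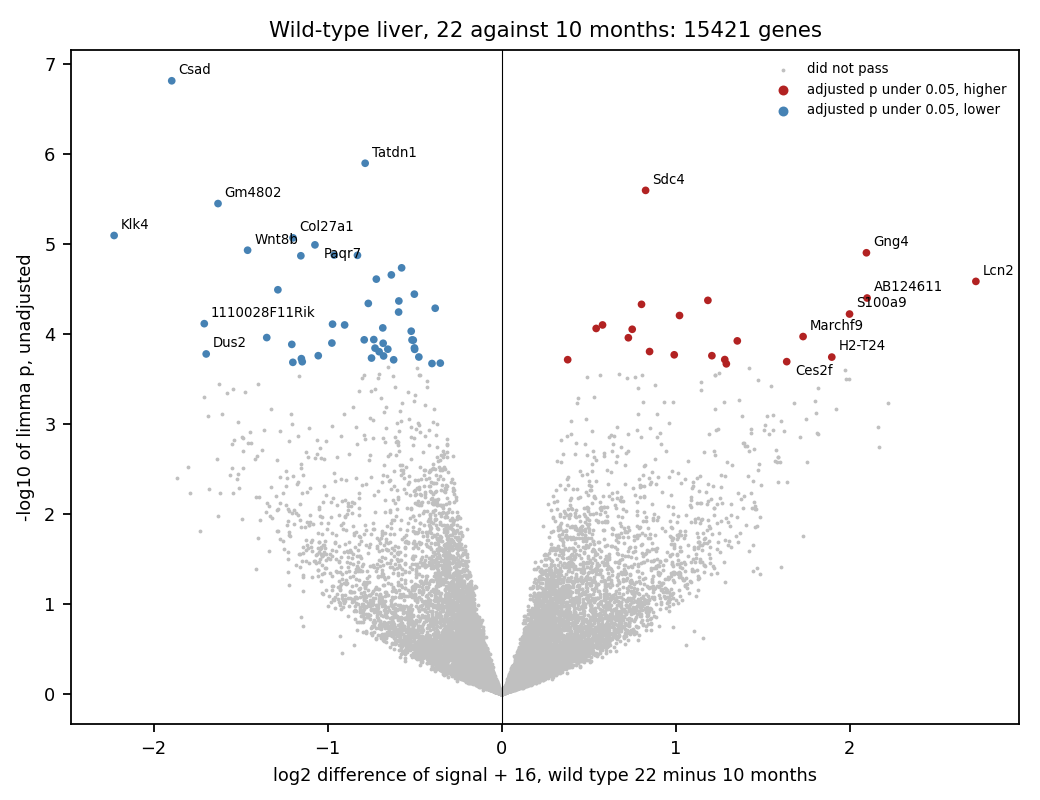
Log2 difference of signal plus 16, wild type 22 minus 10 months (horizontal), against -log10 of the unadjusted limma p (vertical), 1 point a gene. Red and blue points are the 22 genes that rose and the 48 that fell past an adjusted p of 0.05; Csad lies highest on the falling side and Lcn2 farthest to the right.

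The fall with the smallest adjusted p was that of Csad. It encodes cysteine sulfinic acid decarboxylase, which makes the taurine precursor hypotaurine. Its signal at 10 months was 3868, 4079, 9942, 6139 and 14466, and at 22 months it ran from 1019 through a median of 2007 to 2472. The highest 22-month array lay below the lowest 10-month array, and df41 was the lowest. The difference was -1.90 (SE 0.29, limma adjusted p 0.00236, lower on 6 of 6 arrays) and -1.73 without df41 (adjusted p 0.00421). Of the 18 urea cycle and amino acid genes tested Csad was the only one to pass; Cdo1, the enzyme one step before it, was at 0.12 (adjusted p 0.73), and without df41 the mitochondrial aspartate-glutamate carrier Slc25a13 passed as well, at -0.85.

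Tatdn1, a nuclease of the TatD family, gave 661, 951, 688, 784 and 774 at 10 months and 361 to 546, with a median of 448, at 22 months. All 6 older arrays lay below all 5 younger ones, and the difference was -0.78 (SE 0.13, limma adjusted p 0.00974). Its 4 other probe sets gave -0.16 to 0.62 and none passed. Csad and Tatdn1 were the only genes past the threshold with each of the 11 arrays left out in turn.

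Klk4, a secreted serine protease known from tooth enamel, had the largest fall, -2.23 (SE 0.42, limma adjusted p 0.0174). Its signal was 294, 185.5, 230, 185.3 and 330 at 10 months and 10.7 to 171, with a median of 31.4, at 22 months, near or below the median signal of an array. Replicate 1 stayed near the younger arrays and the other 5 were at 54.2 or below. Bcl2, the inhibitor of mitochondrial cell death, gave 394, 324.5, 410, 380 and 286 at 10 months and 47.0 to 248, with a median of 144, at 22 months. The groups did not overlap, and the difference was -1.29 (SE 0.27, limma adjusted p 0.0292). The 3 other probe sets of Bcl2 gave -0.32 to 0.06 and did not pass.

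Among the other genes that fell were Wnt8b, a Wnt ligand, at -1.46, Dus2, a tRNA dihydrouridine synthase, at -1.70, and the collagen gene Col27a1 at -1.20. The membrane progestin receptor Paqr7 fell by 1.07, the sulfate transporter Slc26a1 by 1.05, the NF-kB subunit gene Nfkb2 by 0.98 and the kinetochore gene Spc24 by 0.96. Hoxa5, a homeobox transcription factor, was lower at -1.15, and the TGF beta receptor Tgfbr2 at -0.73. Smaller falls were those of the insulin-degrading protease Ide by 0.52, the autophagy gene Map1lc3a by 0.50 and the ribosomal protein-like Rps27l by 0.38. The other probe sets of Ide gave -0.59, 0.06, 0.08 and 0.09, and none passed. Map1lc3a was the only 1 of 23 autophagy and lysosome genes to pass, and Nfkb2 the only 1 of 20 NF-kB and chemokine genes. Over all genes 0.454% passed. Nfkb2 went against most of its list, in which 13 of 20 were above 0 with a median of 0.20 (0.31 without df41). That list's median per array was 0.18 to 0.37 at 22 months and -0.09 to 0.15 at 10 months. Also lower were 1110028F11Rik, Gm4802, Usp46os2, 9130409I23Rik and Lrrc61, by 1.71, 1.63, 1.35, 1.15 and 1.15. For Gm4802 df41 was the array that overlapped the younger ones, at 412 against 68.2 to 106 on the other 5 older arrays.

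**Figure D2:**
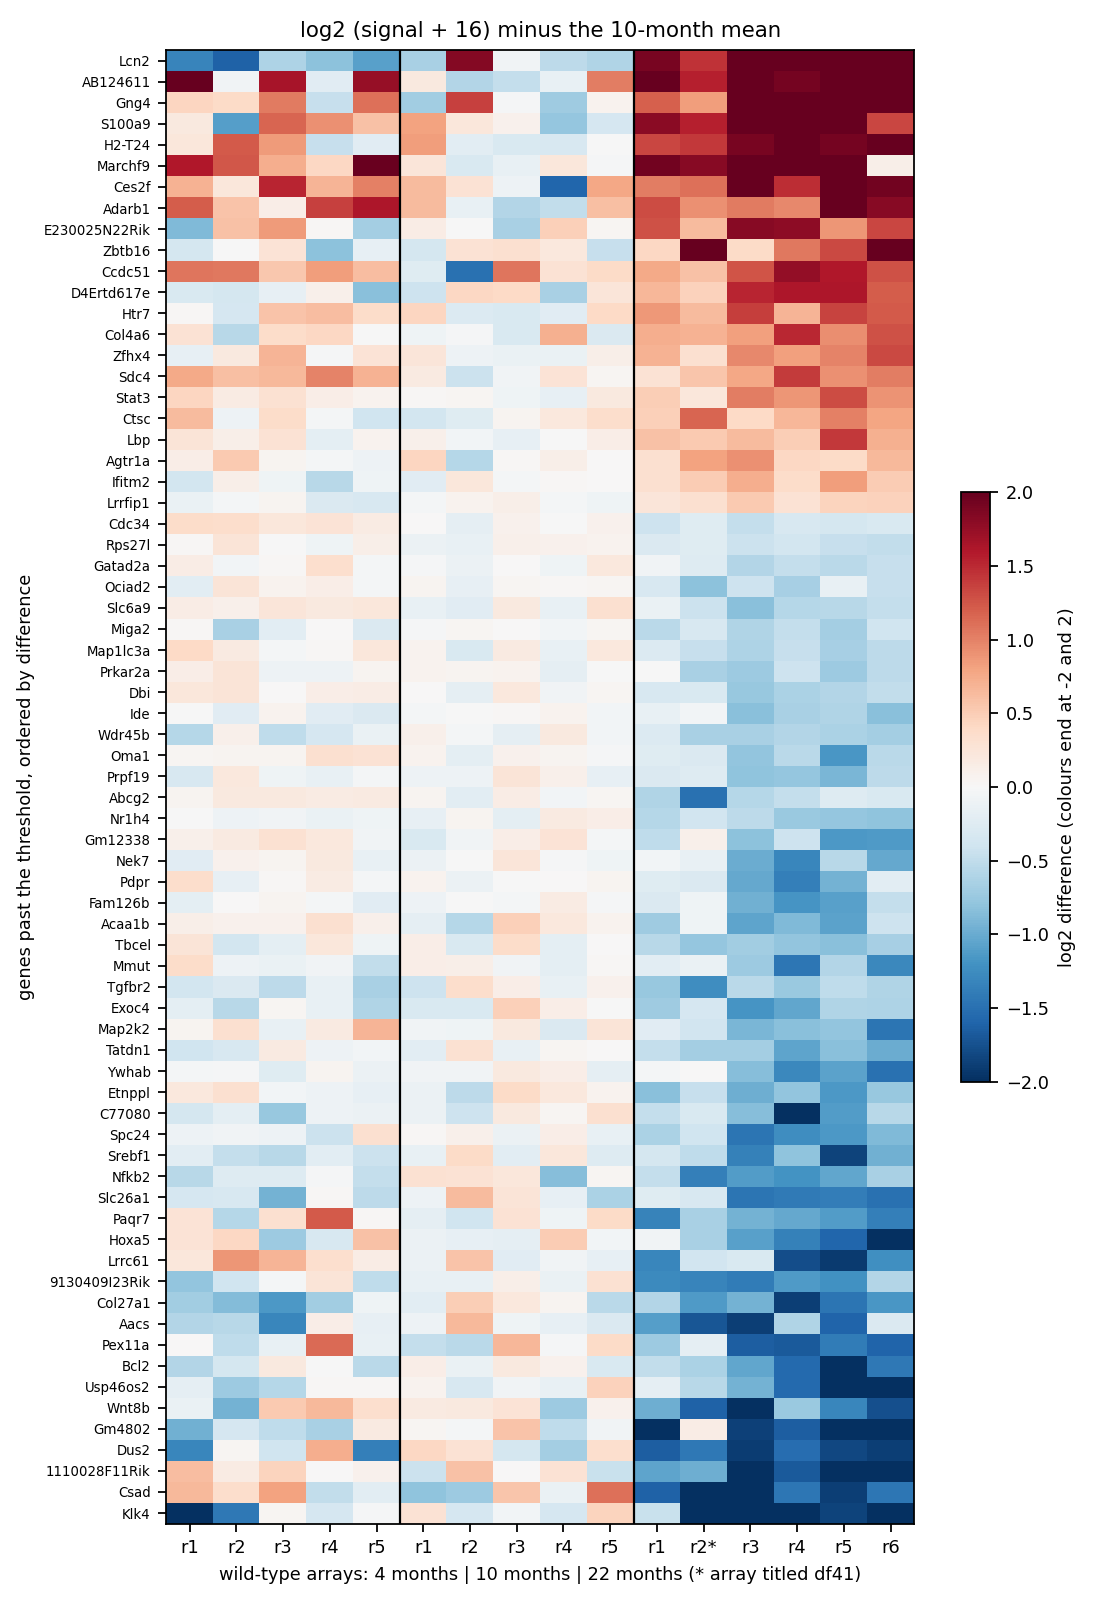
Each row is 1 of the 70 genes past the threshold and each column a wild-type array (5 at 4 months, 5 at 10, 6 at 22). Colour is log2 of signal plus 16 minus the 10-month mean, capped at -2 and 2; replicates 3 to 6 at 22 months are deeper in colour than replicates 1 and 2.

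The 70 genes moved further on the 22-month arrays 3 to 6 than on replicates 1 and 2. For the 48 that fell, the median distance from the 10-month mean was -0.47 on replicate 1 and -0.41 on df41, and -0.93, -0.95, -1.07 and -0.78 on replicates 3 to 6. For the 22 that rose, it was 0.74 and 0.75 on the first 2 and 1.15 to 1.44 on the other 4. These are the genes the test selected, so the numbers only show where their differences come from.

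Lipid regulators were among the genes that fell. Srebf1, which encodes the activator of fatty acid synthesis, gave 9320, 13559, 8977, 12159 and 8659 at 10 months and 2859 to 8120, with a median of 5627, at 22 months. The groups did not overlap, and the fall was -0.97 (SE 0.22, limma adjusted p 0.0395; -1.06 and 0.0131 without df41). It was the only 1 of 22 fatty acid and triglyceride synthesis genes to pass. In that list 16 were below 0, with a median of -0.28, and 19 were below 0 without df41, with a median of -0.35. Larger differences in it that did not pass were, among others, those of malic enzyme Me1 at -1.32 (adjusted p 0.078), Thrsp at -1.23 (0.24), the elongase Elovl6 at -1.21 (0.096) and the synthase Fasn at -1.10 (0.18). Of 20 cholesterol synthesis genes, which the related factor SREBP-2 controls, 17 were above 0 with a median of 0.19, and none passed. Sqle, squalene epoxidase, was highest at 0.80 (limma adjusted p 0.10). Without df41, 19 of the 20 were above 0 with a median of 0.20, and none passed.

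Of 24 PPAR alpha targets and fatty acid oxidation genes, 21 were below 0 with a median of -0.26, against -0.00 for all genes. The 1 that passed was Acaa1b, a peroxisomal thiolase, which gave 33107, 25448, 52273, 43608 and 39379 at 10 months and 18008 to 35298, with a median of 21655, at 22 months. The groups overlapped through df41, the highest of the older arrays, and the low replicate 2 of the younger ones. The difference was -0.70 (SE 0.16, limma adjusted p 0.0467). Pex11a, which drives peroxisome division and is not in that list, fell by 1.21 (adjusted p 0.0437), with 3 of 5 younger arrays above every older one. Without df41, 23 of the 24 listed genes were below 0, with a median of -0.39. In that fit 3 genes of the list passed: Acaa1b at -0.83, the mitochondrial acyl-carnitine carrier Slc25a20 at -0.57 and the dehydrogenase Acadl at -0.40. Acadl gave 3803 to 4164 on the 5 other older arrays, 8438 on df41 and 4511 to 6018 at 10 months. The list's median per array was 0.48 on df41, -0.40 to -0.30 on the other older arrays, and -0.35 to 0.16 at 10 months. Ppara itself was at -0.34 (adjusted p 0.50).

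Nr1h4, the bile acid receptor FXR, gave 3283, 3800, 3216, 4142 and 4010 at 10 months and 2092 to 2798, with a median of 2324, at 22 months. The groups did not overlap, and the fall was -0.63 (SE 0.13, limma adjusted p 0.0243). None of the other 15 bile acid synthesis and transport genes passed, Cyp7a1, the rate-limiting enzyme of the pathway, being at -0.96 (adjusted p 0.28) and the FXR target Nr0b2 at 0.31 (0.70). Abcg2, an efflux transporter, fell by 0.62.

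Genes of the acute phase response were among those that rose. Of 31 tested, 26 were above 0 with a median of 0.38, and 3 passed, where 0.143% of all genes rose: Lcn2, Stat3 and Lbp. Without df41, 26 were above 0 with a median of 0.40, and 5 passed, where 0.447% of all genes rose. Lcn2, lipocalin 2, which binds bacterial siderophores, gave 283, 1649, 428, 310 and 290 at 10 months and 1253 to 16800, with a median of 2210, at 22 months. It overlapped through 1 younger array, replicate 2, and its highest value was on replicate 5 of the older ones. The difference of 2.73 (SE 0.56, limma adjusted p 0.0251) was the largest of any gene past the threshold. Stat3, the transcription factor downstream of interleukin 6, gave 3055, 3112, 2835, 2696 and 3438 at 10 months and 3534 to 7465, with a median of 5582, at 22 months. The groups did not overlap, df41 being the lowest older array, and the difference was 0.80 (SE 0.17, limma adjusted p 0.0314). Its other 3 probe sets gave 0.77, 0.42 and -0.52 and did not pass. Lbp, which hands bacterial lipopolysaccharide to its receptor, gave 2703, 2414, 2237, 2499 and 2754 at 10 months and 3546 to 6715, with a median of 3849, at 22 months. The difference was 0.73 (SE 0.17, limma adjusted p 0.0428), with no overlap.

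S100a9, a calcium-binding protein abundant in neutrophils, rose by 1.999 on the log2 scale (SE 0.43, limma adjusted p 0.0356). It gave 95.6, 58.3, 51.7, 21.5 and 34.3 at 10 months and 146 to 400, with a median of 247, at 22 months, with no overlap. Of 6 neutrophil markers tested it alone passed. S100a8, its partner in calprotectin, was at 0.81 (adjusted p 0.51), Ngp at -0.13, Mmp8 at -0.81 and Csf3r at 0.14. The summed signal of the 6 markers ran from 1398 to 2901 at 22 months and from 1608 to 1777 at 10 months; the part of cell content in this was not tested. In bulk tissue, more cells of a type and more RNA per cell cannot be told apart.

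The serum amyloid and other inducible members did not pass, and their values are given as chosen after they were seen. Saa1 gave 1981, 43650, 3144, 1739 and 2218 at 10 months, and 2531 to 54323, with a median of 10831, at 22 months. Replicate 2 of the younger group was above 4 of the 6 older arrays, and df41 lay within the range of the younger ones; the difference was 1.73 (adjusted p 0.27). Orm2 showed the same younger array at 4575 against 568 to 745 on the other 4. Apcs, serum amyloid P, was at 1.15 (adjusted p 0.055) and passed without df41 at 1.18 (0.041); Itih3, an inhibitor heavy chain, passed without it at 0.53. Without df41 and that younger array, an alternative chosen after seeing the data, 8 of 31 passed, all higher, with a median of 0.46. Of all genes 173 passed there (1.12%), 50 of them higher (0.324%). That younger array was high in members of this list, so leaving it out favours more rises in the list. The larger count is therefore no support for a rise. The list's median over the genes on each array was 0.07 to 0.69 at 22 months and -0.10 to 0.08 at 10 months. With replicates 3 to 6 left out, 0 of the list passed in limma and the median was 0.09; of all genes 6 passed there (0.0389%), 1 of them higher (0.00648%), and 671 had an unadjusted p under 0.05 (4.35%).

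The promoters of Lcn2 and Stat3 are shown because C/EBP and STAT3 are the factors by which acute phase genes are known to be switched on. They belong to 2 of the 3 acute phase genes that rose, the other being Lbp. That of S100a9, a neutrophil marker that rose and is not in the acute phase list, is set beside them. Each is the 250 bases before the RefSeq start on GRCm38.p6, 5′ to 3′, with matches to the C/EBP-type motif TTGCNNAA on either strand in capitals.
Lcn2, chr2:32387740-32387989, strand minus: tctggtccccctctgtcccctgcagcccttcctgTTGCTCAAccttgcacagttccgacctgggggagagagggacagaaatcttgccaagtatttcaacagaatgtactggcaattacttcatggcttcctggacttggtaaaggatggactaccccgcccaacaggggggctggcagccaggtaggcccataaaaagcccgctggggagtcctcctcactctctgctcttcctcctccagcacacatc
S100a9, chr3:90695722-90695971, strand minus: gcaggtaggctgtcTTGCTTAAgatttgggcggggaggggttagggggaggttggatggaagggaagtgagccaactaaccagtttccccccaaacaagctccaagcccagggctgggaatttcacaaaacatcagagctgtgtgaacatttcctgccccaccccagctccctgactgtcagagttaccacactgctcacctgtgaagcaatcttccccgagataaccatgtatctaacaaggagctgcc
Stat3, chr11:100939541-100939790, strand minus: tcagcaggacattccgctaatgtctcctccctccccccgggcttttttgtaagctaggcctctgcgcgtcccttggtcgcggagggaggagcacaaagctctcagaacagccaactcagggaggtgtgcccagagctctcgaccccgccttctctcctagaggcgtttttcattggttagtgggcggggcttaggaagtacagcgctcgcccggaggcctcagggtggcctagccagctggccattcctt
Lcn2 held 1 match, 216 bases before its start, and S100a9 held 1 at 236 bases. Stat3 held 0. The motif was found in 9.55% of 27025 promoters, in 3 of 16 genes that rose and have an entry, and in 2 of 39 that fell. The STAT motif TTCNNNGAA was in 7.18% of all promoters, 2 of the 16 and 3 of the 39, and in none of the promoters printed here.

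**Figure D3:**
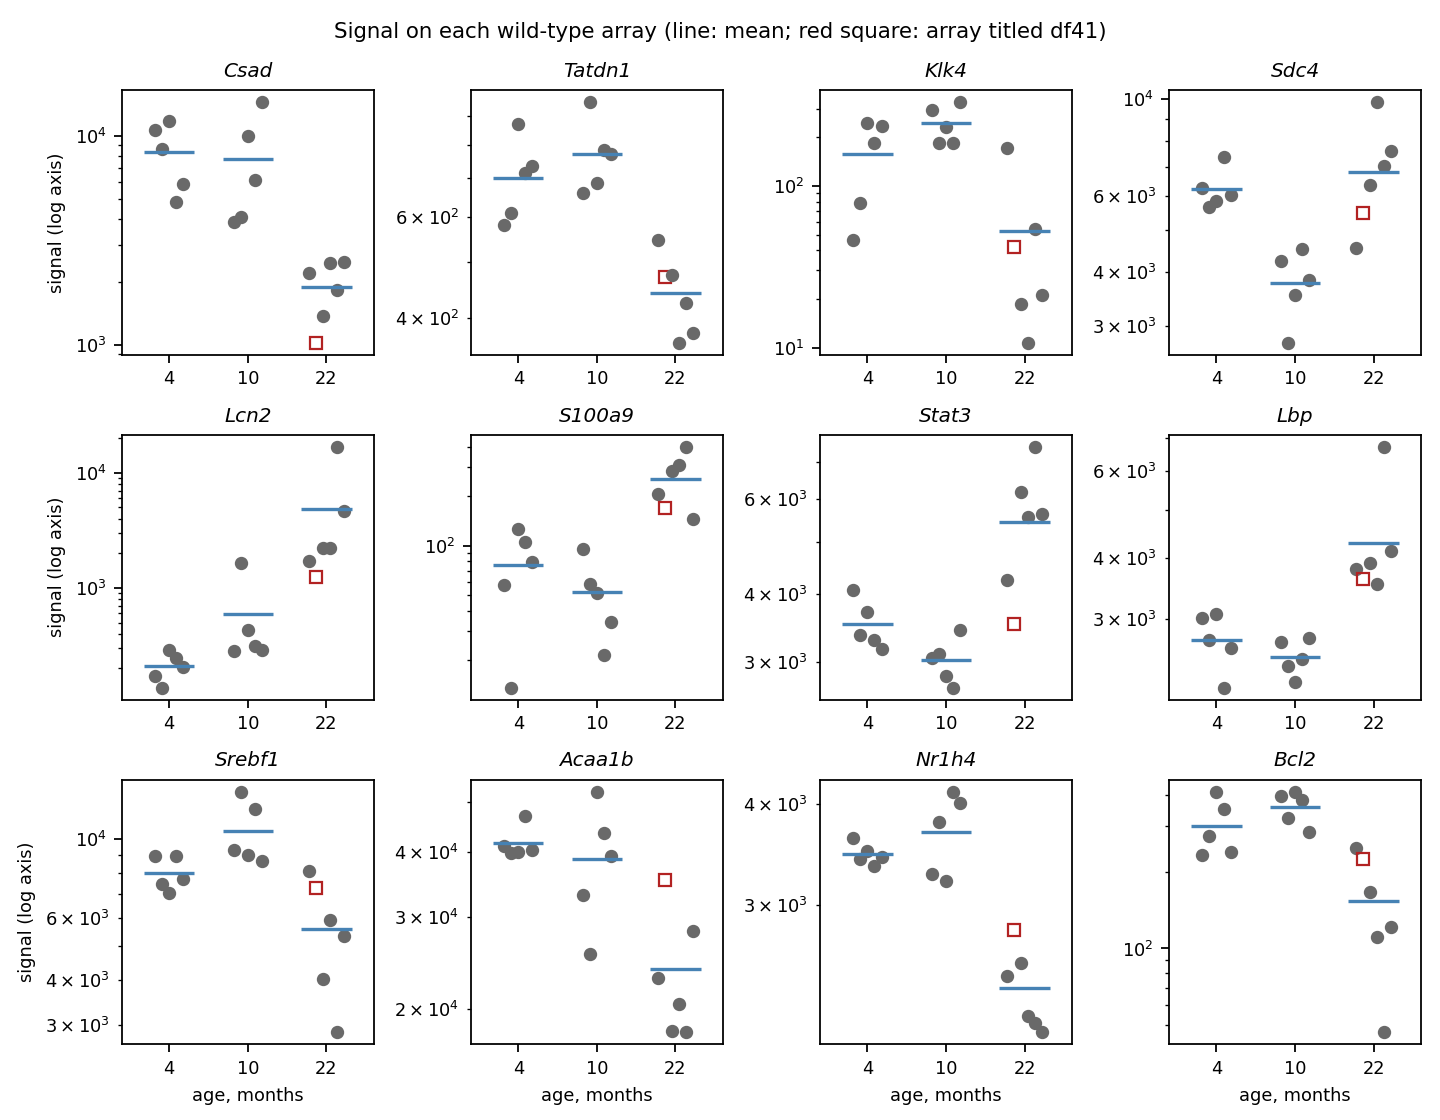
Signal on each wild-type array (log axis) at 4, 10 and 22 months for 12 genes, with the group mean as a line and df41 as a red square. In the upper and lower rows Csad, Tatdn1, Srebf1 and Nr1h4 lie lower on all 22-month than on all 10-month arrays. The 22-month range of Srebf1 overlaps that of 4 months, and Sdc4 is as high at 4 as at 22 months.

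The remaining genes that rose belonged to several classes. Sdc4, syndecan 4, gave 4231, 2743, 3533, 4510 and 3821 at 10 months and 4546 to 9854, with a median of 6673, at 22 months, with the lowest older array just above the highest younger one. The difference was 0.83 (SE 0.15, limma adjusted p 0.013), and its second probe set gave -0.26 (0.69). AB124611 rose by 2.10, the class Ib histocompatibility gene H2-T24 by 1.90, the ubiquitin ligase Marchf9 by 1.73, the carboxylesterase Ces2f by 1.64 and the RNA-editing enzyme Adarb1 by 1.35, all at low signal. Gng4, a G protein subunit, rose by 2.10 (SE 0.41, limma adjusted p 0.0174), but a second probe set fell by 1.79 (0.0483), so the direction of this gene is uncertain. Zbtb16, a transcription factor of the BTB zinc finger kind, gave 1226, 1908, 1959, 1806 and 1130 at 10 months and 2053 to 7680 at 22 months and rose by 1.28. It was not called without df41 (adjusted p 0.058). Ctsc, the protease that activates neutrophil serine proteases, rose by 0.75, the angiotensin receptor Agtr1a by 0.58 and the interferon-induced Ifitm2 by 0.54.

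Over all 70 genes, 38 had other probe sets, 76 in all. Of those, 59 had the sign of the probe set used, 17 the opposite one, and 4 passed.

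Other processes showed few or no calls. Of 44 oxidative phosphorylation genes, 43 were below 0, with a median of -0.14 against -0.00 and 50.3% below 0 for all genes, and 0 passed. The lowest was Ndufb3, a complex I subunit, at -0.43 (adjusted p 0.059), which passed without df41 at -0.50 (0.0134). Under quantile normalisation 36 of 44 were below 0 with a median of -0.09. Without df41, 43 were below 0 with a median of -0.20. The list's median was 0.10 on df41, -0.25 to -0.04 on the other older arrays and -0.11 to 0.16 at 10 months, so the groups overlapped. Of 22 clock genes none passed, with a median of -0.23, and without df41 the median was -0.41. Without df41, Per3 at -1.08 and Tef at -0.88 passed. With all arrays the other probe sets of Per3 gave -0.74 to 0.95 and those of Tef 0.48 and 0.12, and none passed. These transcripts cycle over the day, and the hour of collection is not given. The metallothionein genes Mt1 and Mt2, which bind zinc and answer stress, were at 2.16 (adjusted p 0.099) and 1.97 (0.052). Mt2 gave 646 to 889 at 10 months and 613, 12274, 6246, 1132, 7454 and 2368 at 22 months, a wide spread. Of 22 p53 and senescence genes, 23 unfolded protein response genes, 31 interferon-stimulated genes, 24 proliferation genes, 15 heat shock genes and 15 growth hormone and IGF axis genes, none passed. The interferon-stimulated list had a median of 0.14, with 23 of 31 above 0 and 8 below. Without df41, 24 were above 0 with a median of 0.12. The signs depended on the scaling: 13 were below 0 under quantile normalisation (median 0.12) and 12 under median centring (median 0.08).

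Markers of other cell types were measured in the same way. Of 12 Kupffer cell markers 8 were above 0 with a median of 0.32, and of 8 B and plasma cell markers 7 were, with a median of 0.44; none passed in either. Their summed signals were 14231 to 21360 at 22 months and 8880 to 20289 at 10 months for Kupffer cells, and 3299 to 9450 and 2941 to 6021 for B and plasma cells. The ranges overlapped. For the 12 markers of stellate cells and matrix the median was -0.02, for the 9 of endothelium -0.01, and none passed. Without df41 the stellate and matrix median was 0.15, with 8 of 12 above 0, and that of endothelium -0.00. On df41 itself the stellate list lay at -0.50, on the other older arrays at -0.04 to 0.44. At 10 months it lay at -0.19 to 0.19. Without df41, 11 of 12 Kupffer cell markers were above 0 (median 0.32) and 7 of 8 B and plasma cell markers (median 0.49). None of these markers passed there.

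**Figure D4:**
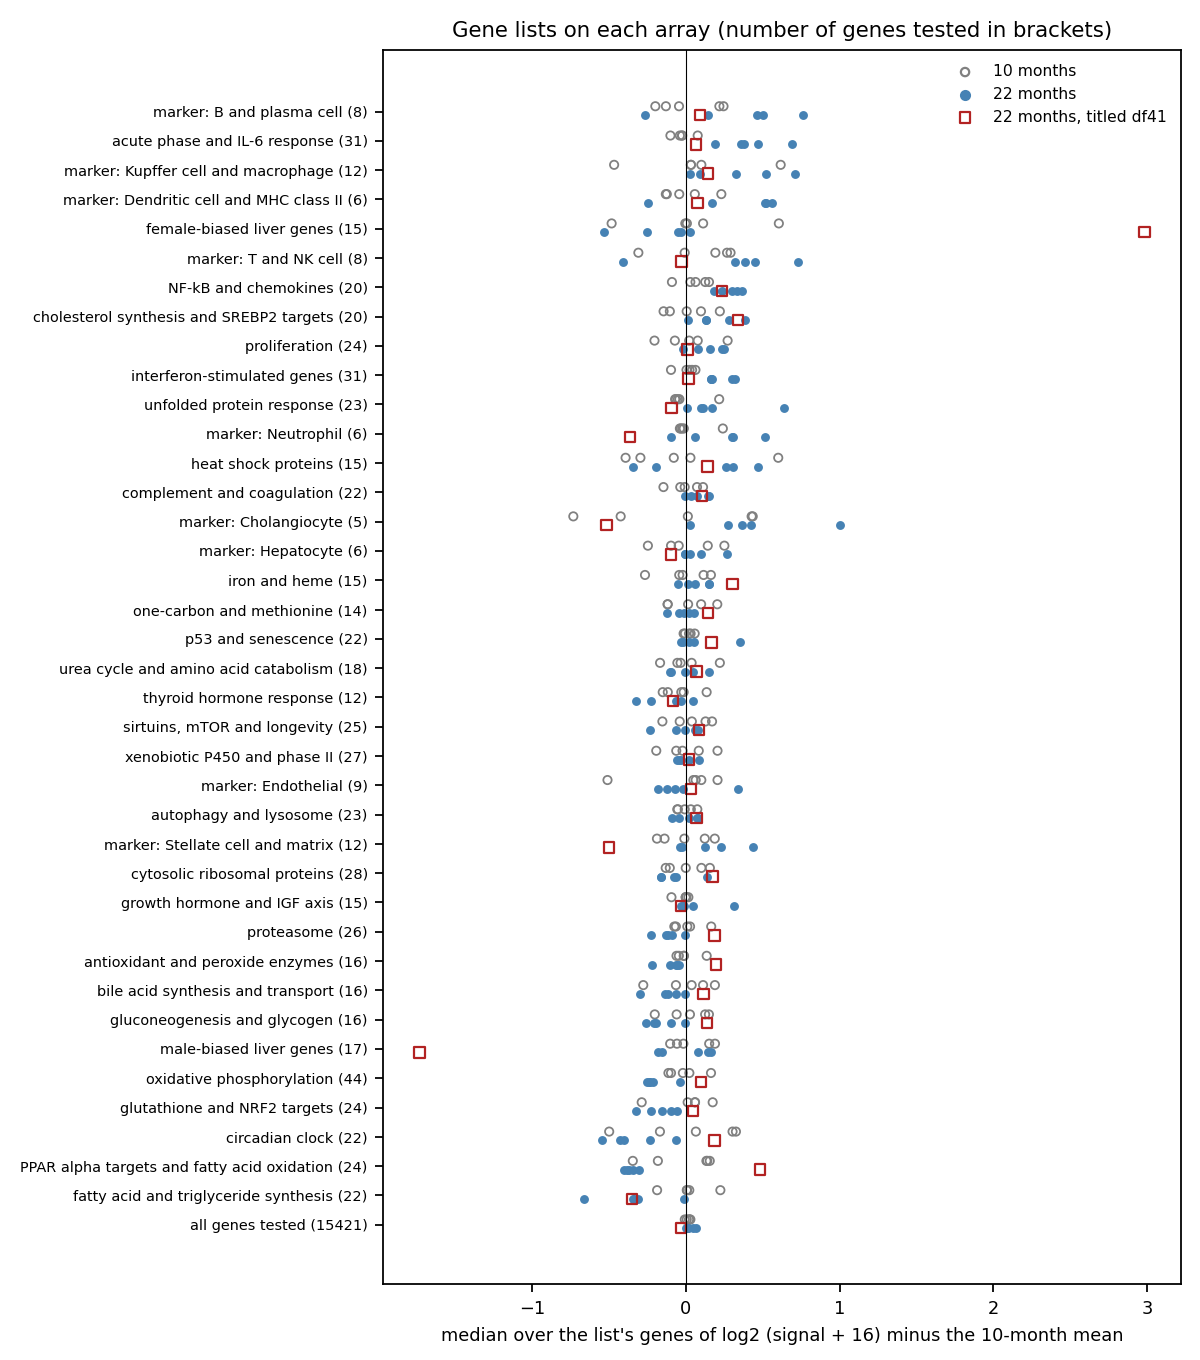
Median over each list's genes of log2 signal plus 16 minus the 10-month mean, 1 point an array (open circles 10 months, blue 22 months, red square df41), lists ordered by their median difference. The sex-biased lists put df41 at 2.98 and -1.73, far from all other arrays.

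The direction of the sex-biased lists turned with df41. Over 17 male-biased genes the median was -0.13 with it and 0.02 without it, and over 15 female-biased genes 0.30 and -0.20. Cyp2d9, a P450 of male liver, gave 605 on df41 and 13435 to 19940 on the other older arrays against 17954 to 27812 at 10 months. It passed only without df41, at -0.55 (limma adjusted p 0.0384). The largest rises that passed only without df41 were Neb at 2.57, 1810064F22Rik at 2.06, Nlrp12 at 2.02, Erbb4 at 1.96 and Tnfrsf10b, a death receptor that p53 induces, at 1.95. The largest falls were Rftn1 at -2.02 and Krtap4-6 at -1.87. In each of these df41 lay within the range of the younger arrays.

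**Figure D5:**
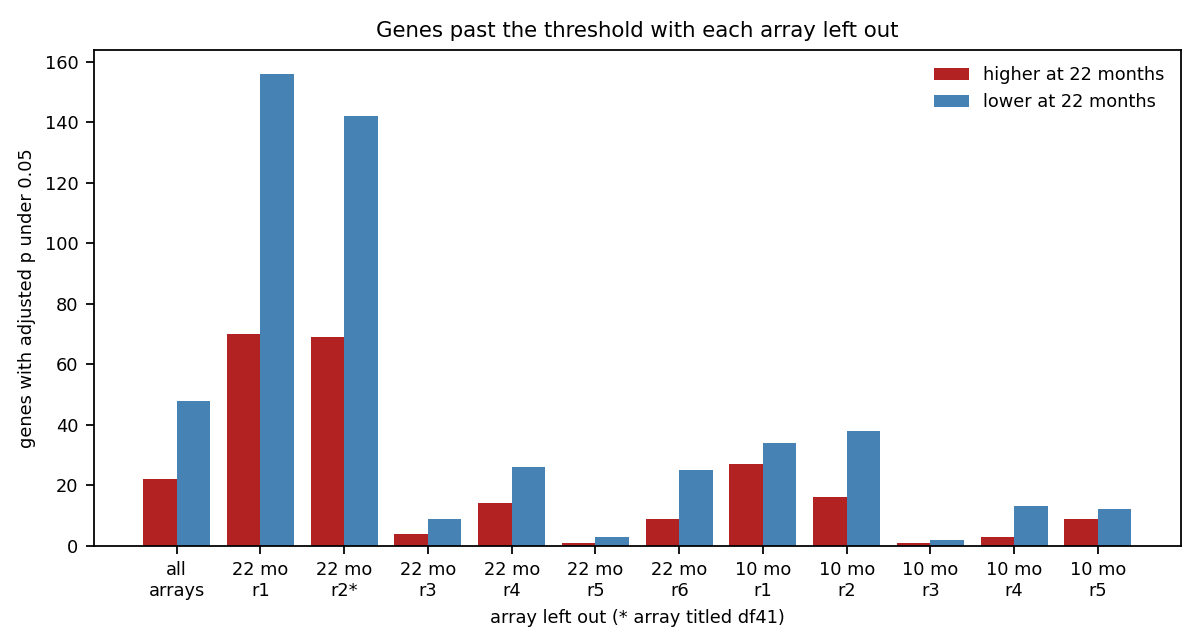
Number of genes past an adjusted p of 0.05, higher (red) and lower (blue), with all arrays and with each of the 11 arrays left out. The count runs from 3 without the 10-month replicate 3 to 226 without the 22-month replicate 1.

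The number of calls moved by over 1.5 times when any 1 of 9 of the 11 arrays was left out. It was 211 without df41 and 226 without replicate 1 of the older group, and 13, 40, 4 and 34 without replicates 3, 4, 5 and 6. It was 3, 16 and 21 without replicates 3, 4 and 5 of the younger group, and 61 and 54 without its replicates 1 and 2. Of the 70 genes, 9 passed in at least 8 of the 11 and 48 in at most 5. The 9 are Csad, Tatdn1, Klk4, Sdc4, Col27a1, Gm4802, Bcl2, Paqr7 and Wnt8b. Lcn2, S100a9, Stat3, Lbp, Srebf1, Acaa1b, Nr1h4 and Bcl2 each lost the call without replicate 5 of the older group and without replicates 3 and 4 of the younger one. Over the 11 fits their limma adjusted p rose to at most 0.0812, 0.103, 0.103, 0.116, 0.116, 0.141, 0.0758 and 0.0860 in that order, and none changed direction. With replicates 3 to 6 of the older group left out together 6 genes passed, 2 of them among the 70.

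The same genes were set beside the other intervals, which share arrays with this one. The genes were selected on the 10- and 22-month arrays. For those that rose, this favours a fall from 4 to 10 months in advance, so the signs below are description only. Between 4 and 10 months 0 genes passed in limma (0% of 15421, with 1174 at an unadjusted p under 0.05, 7.61%), and between 4 and 22 months 614 did (3.98%). Of the 22 that rose, 16 were below 0 from 4 to 10 months, though not past the threshold, and for some of them 22 and 4 months were near each other. Sdc4 was at -0.74 from 4 to 10 months and at 0.09 from 4 to 22, Adarb1 at -0.98 and 0.37, Marchf9 at -1.19 and 0.54 and Ccdc51 at -0.82 and 0.38. Csad was at -0.22 and -2.12 (limma adjusted p 5.3e-05 for the second). Lcn2 was at 1.09 and 3.82 (0.00016) and Nr1h4 at 0.08 and -0.55 (0.014). These p-values are not separate support, since the same 22-month arrays served to select the genes.

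In dwarf mice, which share no array with this comparison, 12 genes passed from 10 to 22 months (0.0778%). The dwarf groups were themselves mixed in the sex-linked genes. Xist ran from 316 to 11300 at 10 months and 494 to 7406 at 22 months, and Eif2s3y from 44.3 to 1036 and 21.6 to 915. The part of this in the dwarf changes and in the differences between genotypes was not tested. The 22 genes that rose in wild type had a median change of 0.08 there, 17 above 0, and the 48 that fell had -0.07, 32 below 0; Ctsc, at 1.05, was the 1 that also passed in dwarf. The change in wild type minus that in dwarf passed the threshold for 5 genes (0.0324%), and for 21 without df41 (0.136%). Csad was the clearest, at -2.36 (SE 0.41, limma adjusted p 0.0117), since dwarf arrays gave 201 to 373 at 10 months and 322 to 519 at 22 months. Adarb1 stood at 2.32, where dwarf arrays gave 273 to 357 at 10 months and 51.7 to 225 at 22 months, and Tbcel, a tubulin chaperone-like gene, at -1.10. For Igfals, the carrier subunit of circulating IGF-1, at -1.94, and Mup10, at -3.18, the wild-type change was -0.05 and -0.13; dwarf signal of Igfals was 234 to 375 at 10 months and 645 to 2252 at 22 months. Csad, Adarb1 and Tbcel were the only genes of the 70 to pass this test, which does not show that the others changed alike in the genotypes.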

How the data were processed

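The authors deposited 1 intensity a probe set and array, made with MAS5 per the submitters' processing notes. Its version is not given in the sources used here. Each of the 31 arrays was scaled to a trimmed mean of 500, leaving out 2% at each end, and then turned into log2 after adding 16, which understates differences of genes with low signal. A probe set was used when it exceeded the 40th percentile of its array on at least 5 arrays, and the one with the highest mean stood for its gene, giving 15421 genes from probe sets with 1 symbol. Of 45037 probe sets, 34945 carry 1 symbol, 932 several and 9160 none in the platform annotation used.

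Groups came from the titles. The model, in limma 3.58.1 under R 4.3.3, had 1 mean for each of the 6 groups of genotype and age, a mean-variance trend, and all 31 arrays, which share one estimate of the spread. Benjamini-Hochberg adjustment ran over all 15421 genes, and 0.05 was the threshold. The script was tested on simulated data. Precision is limited by the number of arrays.

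The genes named are the 14 largest rises and falls past the threshold, the 6 smallest adjusted p in each direction, the 8 largest of each direction past it only without df41, the 6 smallest adjusted p for the difference between genotypes, members of lists, and control genes. Other genes were named after their values were seen, among them Saa1, Orm2, Mt1, Mt2, Igf1, Sult2a2, Hsd3b5 and the smaller calls. Members and the 42 gene lists were chosen with earlier results of these data known. Of 804 listed genes, 694 were tested. Alternatives were other scalings, pseudocounts, filters, probe set rules, array sets, array weights and leaving out arrays. Promoters are from RefSeq, on GRCm38.p6.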

Additional observations from a re-analysis of the deposited data

Results flagged for a closer look

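Of 142 gene and group pairs checked over 71 genes, 25 held an array far from the others of its group by Dixon's test, 11 at 22 months and 14 at 10 months. Chance gives such an array in about 1 of 20 groups, but the genes were not drawn at random. Of the 71, 29 passed the threshold only without df41, which was one ground for checking a gene and favours genes on which that array stands apart. Of these 29 are 6 of the 7 on df41 below, the exception being Gm4802. On df41, which held 7 of the 11, Gm4802 gave 412 (nearest other 106), Acadl 8438 (4164), Slc25a20 11357 (5838), Fmo1, a flavin monooxygenase, 12220 (7114) and Per3 729 (392), all the highest at 22 months. On the same array Tnfrsf10b gave 34.0 (140) and Cyp2d9 605 (13435), the lowest. On the other 22-month arrays, replicate 6 had the lowest Marchf9 at 38.6 (162) and the highest 9130409I23Rik at 1202 (821), replicate 4 the highest Mup10 at 24642 (9603) and replicate 5 the highest Lbp at 6715 (4137).

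Among the 10-month arrays, replicate 2 had the highest Lcn2 at 1649 (428), Aacs at 5857 (3487) and Lrrc61 at 651 (411), and the lowest Sod3, extracellular superoxide dismutase, at 246 (531). Replicate 4 had the highest Col4a6 at 253 (145) and Hoxa5 at 796 (531), and the lowest Wnt8b at 569 (1007), Rftn1 at 90.6 (219) and Nfkb2 at 320 (607). Replicate 3 had the highest Nlrp12 at 197 (41.1) and Erbb4 at 159 (34.5) and the lowest Prr29 at 203 (338). Replicate 1 had the highest H2-T24 at 85.1 (40.2), and replicate 5 the highest 1810064F22Rik at 326 (43.9).

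By limma's test of the difference itself, 5 genes changed differently from 10 to 22 months in wild type and dwarf. The change in wild type minus that in dwarf was 2.32 for Adarb1, -2.36 for Csad, -1.94 for Igfals, -3.18 for Mup10 and -1.10 for Tbcel.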

How the results depend on the processing

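No paired analysis was possible because the labels give the groups no shared replicate numbers and the animals differ. With the same probe set, or probe sets averaged, no gene of the 70 that was rerun changed direction under alternatives that kept some of the 22-month arrays 3 to 6. The fit without all of those arrays leaves only replicate 1 and df41 at 22 months and is not covered by this statement. Other probe sets of a gene did differ: for 38 of the 70 genes 76 others were tested, and 17 had the opposite sign, among them those of Sdc4 (-0.26) and Hoxa5 (0.53). Of the 17, 1 was past the threshold, that of Gng4 (-1.79, limma adjusted p 0.0483). For wild type 22 against 10 months, the 70 calls became 46 with no filter, 40 with probe sets averaged per gene, 16 with only the 11 arrays in the fit, 8 with wild-type arrays only, 261 with array weights, 28 with no mean-variance trend, 6 without the 22-month arrays 3 to 6, and 173 without df41 and the 10-month replicate 2. With 1 array left out they ran from 3 to 226. Quantile normalisation, median centring, pseudocounts of 1 and 64, the filter at the 60th percentile and each probe set alone gave 47 to 96. Median centring changed the split to 12 higher and 59 lower; its median over all genes was -0.07. Without df41, the 211 calls became 493 with median centring, 64 higher and 429 lower, and 368 with each probe set on its own. For the difference between genotypes, the 5 calls became 3 with quantile normalisation, 3 with each probe set on its own, 17 with array weights, 15 without df41 and the 10-month replicate 2, 0 with no trend and 0 without arrays 3 to 6, and with 1 array left out they ran from 3 to 21. The cause of these shifts was not tested, beyond the smaller number of arrays in those fits that left arrays out. Genes of low signal, among them Klk4, S100a9, AB124611 and Marchf9, lie near the background of the arrays.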
